A study of Homo sapiens with 6 samples.

Results

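Death receptors at the cell surface and the inhibitor of apoptosis (IAP) proteins inside the cell set whether a TNF family ligand leads to death or to survival signalling. The 9 genes described here are the death receptor genes TNFRSF10A, TNFRSF10B and FAS, the decoy receptor gene TNFRSF10D, the IAP genes BIRC2, BIRC3 and XIAP, the CASP8 inhibitor CFLAR and the adaptor TRAF1. They were taken by symbol from a table of 58735 genes, and all 9 were found in it. The table came from the BRAF-mutant human melanoma cell line A375, whose polyadenylated RNA was sequenced after 6 h with CuB (3 libraries) or after 6 h with the solvent DMSO (3 libraries). CuB stands for cucurbitacin B, a plant triterpenoid. Its dose is uncertain, since the protocol gives 0.2 µM and the library names give 100 nM. The labels do not say that the libraries of a group came from separate cultures, so every p-value here reflects spread among these libraries only, which may be technical.

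A trimeric ligand clusters the death receptors, whose intracellular death domains recruit the adaptor FADD and the initiator caspase CASP8. CFLAR, a catalytically inactive relative of CASP8, competes for the same complex. BIRC2 and BIRC3 encode the ubiquitin ligases cIAP1 and cIAP2, which join TNF receptor complexes through TRAF adaptors, modify RIPK1 and keep the NF-kB inducing kinase MAP3K14 low, whereas XIAP blocks active caspases directly. BIRC3, TRAF1 and CFLAR are known NF-kB targets, and TNFRSF10B is a known target of the stress factor DDIT3 (CHOP) in human cells.

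With CuB the mRNA of 4 of the 9 genes rose, and 0 fell. These were BIRC3 (17.5-fold), BIRC2 (3.44-fold), TRAF1 (3.29-fold) and TNFRSF10B (2.63-fold), as ratios of mean FPKM, fragments divided by gene length and by a library size set by the authors. TNFRSF10A, FAS, XIAP and CFLAR did not pass, and TNFRSF10D was near 0 in both groups and was not tested. A gene was tested where its mean over the 6 libraries was at least 1 FPKM, and it passed at an adjusted p under 0.05 over all 13273 tested genes. Of those genes 22.9% rose and 15.6% fell, 38.6% in all, against 4 that rose and 0 that fell of the 8 tested genes described here. With equal fragment totals per library 2020 genes rose and 3128 fell, and the median log2 fold change of all genes shifted by -0.139. At least 2-fold rises made up 4.87% of the tested genes and the same 4 of these 8. The RNA is a mean over the culture, so fewer cells and less RNA per cell cannot be told apart.

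The neighbouring genes BIRC3 and BIRC2 carried the largest rises, and their start regions are shown with that of CFLAR, which did not pass. The sequences are RefSeq windows of 300 bases on GRCh38.p14, from 250 bases before the annotated start to 50 after it, in the direction of transcription. Capitals mark matches to the NF-kB consensus in BIRC3 and CFLAR and the element TGACGTCA in BIRC2. The BIRC3 window lies on the plus strand at chr11:102317234-102317533, the BIRC2 window on the plus strand at chr11:102346964-102347263, and the CFLAR window, the first of 4 in the table, on the plus strand at chr2:201118466-201118765.
BIRC3: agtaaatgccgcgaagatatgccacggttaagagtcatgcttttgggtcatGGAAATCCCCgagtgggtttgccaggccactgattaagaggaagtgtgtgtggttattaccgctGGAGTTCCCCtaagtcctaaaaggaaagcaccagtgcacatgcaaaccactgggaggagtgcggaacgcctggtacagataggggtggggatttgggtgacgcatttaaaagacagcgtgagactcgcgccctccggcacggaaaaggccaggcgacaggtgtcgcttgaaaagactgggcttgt
BIRC2: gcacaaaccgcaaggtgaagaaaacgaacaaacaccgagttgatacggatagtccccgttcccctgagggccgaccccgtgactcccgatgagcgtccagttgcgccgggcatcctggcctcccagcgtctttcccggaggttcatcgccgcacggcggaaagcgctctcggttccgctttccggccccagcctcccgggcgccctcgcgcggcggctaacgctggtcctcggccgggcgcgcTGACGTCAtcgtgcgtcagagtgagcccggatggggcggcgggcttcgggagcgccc
CFLAR: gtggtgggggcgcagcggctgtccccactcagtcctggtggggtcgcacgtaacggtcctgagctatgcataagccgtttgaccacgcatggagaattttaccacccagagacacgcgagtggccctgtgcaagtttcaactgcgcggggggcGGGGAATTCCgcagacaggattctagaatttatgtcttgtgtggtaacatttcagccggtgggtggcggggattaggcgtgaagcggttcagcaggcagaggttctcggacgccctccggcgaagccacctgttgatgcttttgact

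Both strands were searched, and the matches did not overlap each other in the 3 windows shown. BIRC3 held 2 NF-kB matches, GGAAATCCCC from base -199 to -190 and GGAGTTCCCC from base -135 to -126, where 0 is the first transcribed base. CFLAR held 1, GGGGAATTCC from base -97 to -88. An NF-kB match was present in 11.3% of all 35116 windows of this length. BIRC2 held TGACGTCA, the cyclic AMP response element bound by ATF and CREB factors, from base -7 to 0, and 1.85% of all windows held this element. Its second window covers the same copy. Of the 9 genes 6 had windows in the table, 16 in all. BIRC2 had an NF-kB match in 0 of its 2 windows, TRAF1 in 0 of 3 and XIAP in 0 of 3. CFLAR had one in 1 of 4 windows, FAS in 1 of 3 and BIRC3 in its only window. The pattern TGANTCA, a loose form of the AP-1 element with any base at its centre, was present in 7.71% of all windows. It matched in 1 of 3 FAS windows and in 1 of 4 CFLAR windows, both times as TGAATCA. The AP-1 consensus has C or G at that base, so neither match is a consensus AP-1 element. The element TGATGNAA, bound by C/EBP and ATF factors, was present in 3.62% of all windows and in 1 of the 3 TRAF1 windows. A match is a run of letters and not a shown binding site.

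**Figure D1:**
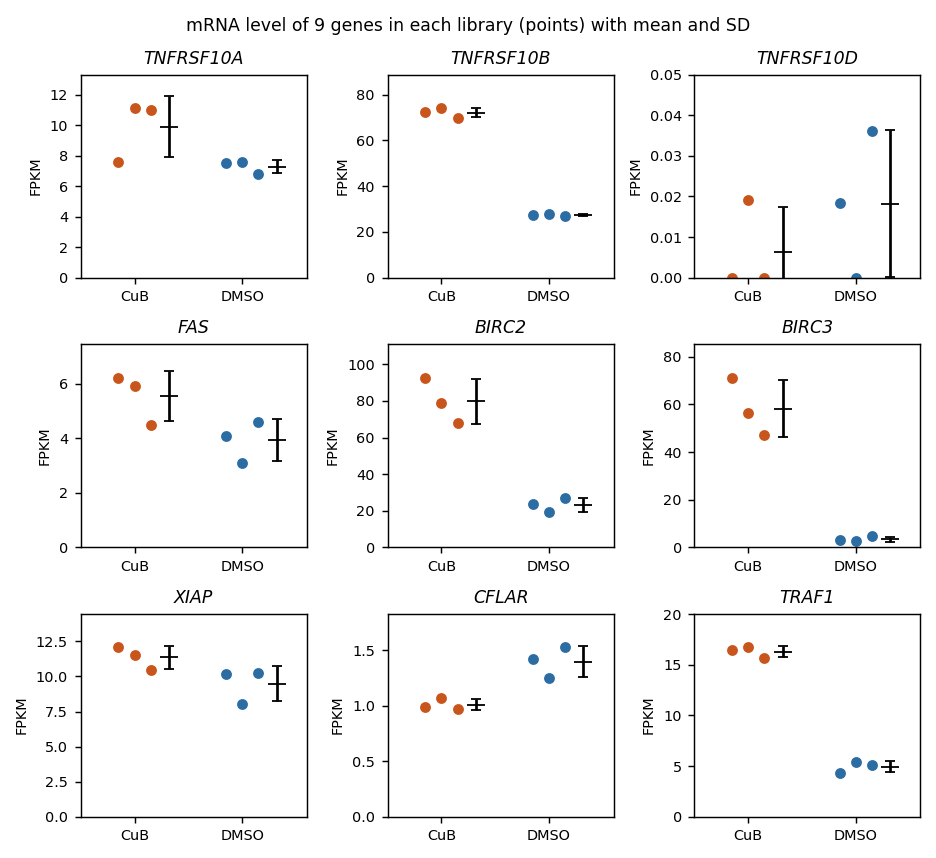
FPKM (linear axes from 0) of the 9 genes in the 3 CuB libraries (orange) and the 3 DMSO libraries (blue), with the mean and SD of each group beside the points. BIRC3, BIRC2, TRAF1 and TNFRSF10B are far above their DMSO values in all 3 CuB libraries, while FAS overlaps and TNFRSF10D is below 0.04 FPKM throughout.

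The death receptors differed among themselves. TNFRSF10B, which encodes the TRAIL receptor DR5 (ENSG00000120889, chromosome 8 from 23020133 to 23069179 on GRCh38), had 72.4, 74.0 and 69.9 FPKM in the CuB libraries, against 27.5, 28.0 and 26.9 FPKM in the DMSO libraries. The groups were far apart and the libraries of each group lay close together, with an SD of 2.82% of the CuB mean and 1.95% of the DMSO mean. It rose by 1.36 in log2 fold change (SE 0.0676, limma adjusted p = 2.2e-05), computed on log2(FPKM + 1) as all log2 fold changes here, which understates the change of low genes. These values rest on 5293, 5676 and 5394 fragments with CuB and 2175, 2361 and 2165 with DMSO. TNFRSF10B had the highest mean of the 9 genes with DMSO. Its coordinates overlap RHOBTB2 and AC107959.2 on the opposite strand, and the library kit does not mark strand. RHOBTB2 was at 4.39 ± 0.548 FPKM with CuB and 4.12 ± 0.605 FPKM with DMSO (SD, n = 3 in each group, here and below).

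TNFRSF10A, which encodes the TRAIL receptor DR4 (ENSG00000104689, chromosome 8 from 23190452 to 23225126), had 7.58, 11.1 and 11.0 FPKM with CuB, against 7.51, 7.58 and 6.77 FPKM with DMSO. The groups did not overlap, but CuB replicate 1 lay next to the DMSO libraries. The log2 fold change of 0.38 (SE 0.146, 95% interval 0.03 to 0.72, unadjusted p = 0.0361) did not pass, with an adjusted p of 0.0807. An unadjusted p under 0.05 was reached by 6 of the 8 tested members and by 48.4% of all tested genes. Without CuB replicate 1 it was 0.54 and passed (adjusted p = 0.00902), and it also passed after a correction for GC content (adjusted p = 0.0417). Of its 2948 transcript windows of 31 bases, 507 occur in transcripts of other genes as well, so its fragments are less certain than those of BIRC2 or BIRC3.

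TNFRSF10D, a decoy TRAIL receptor with a truncated death domain (ENSG00000173530, chromosome 8 from 23135588 to 23164030), had 0, 1 and 0 fragments with CuB, against 1, 0 and 2 with DMSO. Both groups were thus at or under 3 fragments in all, and no fold was computed. TNFRSF10C, the lipid-anchored decoy of the same cluster, was at 0.121 ± 0.054 FPKM with CuB and 0.291 ± 0.126 FPKM with DMSO and was not tested. TNFRSF10D and TNFRSF10C thus had far lower levels than TNFRSF10A and TNFRSF10B per kilobase in both groups. This does not hold for TNFRSF11B, a soluble receptor that binds TRAIL, which is given below.

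FAS, the receptor of FAS ligand (ENSG00000026103, chromosome 10 from 88990582 to 89015785), had 6.21, 5.90 and 4.48 FPKM with CuB, against 4.09, 3.09 and 4.59 FPKM with DMSO. CuB replicate 3 lay below DMSO replicate 3, so the groups overlapped. The log2 fold change of 0.41 (SE 0.156, 95% interval 0.04 to 0.78) had an adjusted p of 0.0781. It passed after the GC correction (adjusted p = 0.00476) and without CuB replicate 3 (adjusted p = 0.0467). FAS overlaps ACTA2 on the opposite strand, which fell to 0.802 ± 0.205 FPKM with CuB, against 1.67 ± 0.0838 FPKM with DMSO. The transcripts of ACTA2 hold 350 of the 4500 windows of 31 bases found in FAS transcripts.

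The difference between the TRAIL receptors was set out within each library, where the scaling of the library cancels in a ratio of FPKM. TNFRSF10B stood at 9.55, 6.67 and 6.38 times the FPKM of TNFRSF10A with CuB, against 3.66, 3.69 and 3.97 times with DMSO. The groups did not overlap. On the log2(FPKM + 1) scale the difference of the means was 0.98 (exact two-sided permutation p = 0.1, adjusted over 4 pairs p = 0.133). The scaling cancels only in part on that scale, because of the added 1. The smallest p that 3 against 3 can give is 0.1, so no pair could pass. TNFRSF10B over TNFRSF10D moved by 1.38 (exact permutation p = 0.1, adjusted p = 0.133), which is nearly the change of TNFRSF10B alone because TNFRSF10D was near 0. The scaling therefore does not cancel in that pair.

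The IAP genes also differed among themselves. BIRC3 (ENSG00000023445, chromosome 11 from 102317450 to 102339403) had 71.1, 56.4 and 47.1 FPKM with CuB, against 2.998, 2.42 and 4.58 FPKM with DMSO. The lowest CuB library was far above the highest DMSO library. This rise, 3.78 as a log2 fold change (SE 0.214, adjusted p = 3.65e-05), stood at place 13 among the rises of all tested genes. The level rests on 7578, 6311 and 5298 fragments with CuB and 346, 298 and 538 with DMSO.

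BIRC2 (ENSG00000110330, chromosome 11 from 102347211 to 102378670) had 92.6, 79.1 and 67.8 FPKM with CuB, against 23.4, 19.3 and 26.8 FPKM with DMSO. The groups did not overlap, and BIRC2 had the highest mean of the 9 genes with CuB in FPKM as deposited. On the log2 scale BIRC2 rose by 1.74 (SE 0.153, adjusted p = 0.000253). Within each library BIRC3 stood at 0.768, 0.714 and 0.695 times the FPKM of BIRC2 with CuB, against 0.128, 0.125 and 0.171 times with DMSO. The level of this ratio depends on the gene lengths used. The log2 ratio of the pair moved by 2.04 (exact permutation p = 0.1, adjusted p = 0.133), with every CuB library above every DMSO library. BIRC2 and BIRC3 transcripts have 37 windows of 31 bases in common, of 4753 and 7591, so few of their fragments are open to assignment to the other gene.

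XIAP (ENSG00000101966, chromosome X from 123859724 to 123913979) had 12.1, 11.5 and 10.5 FPKM with CuB, against 10.1, 8.06 and 10.3 FPKM with DMSO. The groups were adjacent without overlap. A log2 fold change of 0.24 (SE 0.112, 95% interval -0.02 to 0.51) did not pass (adjusted p = 0.133), and it passed after the GC correction (adjusted p = 0.004). Under equal fragment totals it was 0.090, and without DMSO replicate 2 it was 0.14.

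CFLAR (ENSG00000003402, chromosome 2 from 201116104 to 201176687) had 0.993, 1.07 and 0.971 FPKM with CuB, against 1.42, 1.25 and 1.53 FPKM with DMSO. All 3 CuB values lay below all 3 DMSO values. The log2 fold change of -0.25 (SE 0.112, 95% interval -0.52 to 0.01) did not pass (adjusted p = 0.117). It passed as lower when fragments were tested with limma-voom, at -0.46 (adjusted p = 0.0144), and under equal fragment totals, at -0.34 (adjusted p = 0.0481). The FPKM of CFLAR is divided by a gene length of 22529 bases, which equals the union of all annotated exons, where the longest coding transcript has 14672. Divided by that transcript it was 1.55 FPKM with CuB and 2.15 FPKM with DMSO. Of its 22617 windows of 31 bases 5294 occur in other genes. The long and short CFLAR proteins cannot be told apart in gene values. CASP8, its partner in the receptor complex, had 7.35, 6.02 and 5.92 FPKM with CuB, against 9.01, 7.45 and 8.56 FPKM with DMSO (log2 fold change -0.33, adjusted p = 0.0524). The log2 ratio of CFLAR to CASP8 differed by 0.08 (exact permutation p = 0.6, adjusted p = 0.6), with SDs of 0.163 with CuB and 0.0775 with DMSO.

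TRAF1, an adaptor that binds TRAF2 and cIAP proteins (ENSG00000056558, chromosome 9 from 120902393 to 120929173), had 16.5, 16.7 and 15.7 FPKM with CuB, against 4.32, 5.43 and 5.10 FPKM with DMSO. The groups were far apart. On the log2 scale the rise was 1.54 (SE 0.0954, adjusted p = 5.29e-05), on 1506, 1603 and 1514 fragments with CuB and 428, 573 and 513 with DMSO.

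The order of the levels changed between the groups. With CuB it ran from BIRC2 through TNFRSF10B, BIRC3, TRAF1, XIAP, TNFRSF10A, FAS and CFLAR to TNFRSF10D, and BIRC2 overlapped TNFRSF10B, TNFRSF10B overlapped BIRC3 and XIAP overlapped TNFRSF10A. With DMSO it ran from TNFRSF10B through BIRC2, XIAP, TNFRSF10A, TRAF1, FAS, BIRC3 and CFLAR to TNFRSF10D, and TRAF1 overlapped FAS and FAS overlapped BIRC3. BIRC3 thus stood at place 7 with DMSO and at place 3 with CuB. The order depends on the gene length in the FPKM, which is the union of all annotated exons. Divided by the longest coding transcript instead, TNFRSF10B (89.7 FPKM) stood above BIRC2 (89.0 FPKM) with CuB. With DMSO FAS (6.51 FPKM) then stood above TRAF1 (5.05 FPKM), and BIRC3 kept its place in both groups. Of the 8 tested genes the groups did not overlap in 7, where 51.5% of all tested genes showed such separation.

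Libraries of the same group also differed by transcript GC content, and the AT-rich members moved with it. In CuB replicates 1, 2 and 3 the genes of lowest GC content (the lowest of 5 equal bins) deviated from their group mean by a median of 0.143, -0.0324 and -0.113 on the log2 scale. BIRC3, at 34.75% GC against a median of 47.75% for all tested genes, deviated by 0.304, -0.0248 and -0.279 in the same libraries. In DMSO replicates 1, 2 and 3 that bin deviated by 0.0648, -0.19 and 0.126, and BIRC3 by -0.0857, -0.311 and 0.396. BIRC2 (38.01% GC), XIAP (39.0%) and FAS (39.1%) were highest in CuB replicate 1 and DMSO replicate 3, as BIRC3 was. TNFRSF10B (50%) and TRAF1 (54.6%) were not highest in CuB replicate 1 or DMSO replicate 3. After the GC correction 7 of the 8 tested genes rose, where 4 rose without it, and CFLAR did not pass (adjusted p = 0.0733). Calls increased over the whole table as well, with 4540 of 13273 genes higher after the correction and 3046 without it. A GC value was available for 13265 of these genes, and the rest were left uncorrected. The log2 fold changes of BIRC3, BIRC2, FAS and XIAP were then 3.82, 1.74, 0.41 and 0.24.

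**Figure D2:**
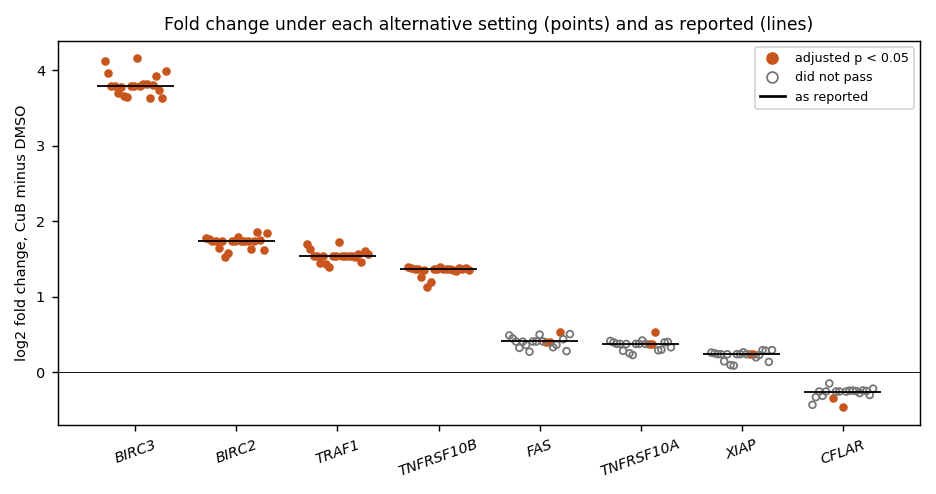
Log2 fold change (CuB minus DMSO) of the 8 tested genes as reported (black lines) and under each alternative setting (points, orange where the adjusted p was under 0.05). BIRC3, BIRC2, TRAF1 and TNFRSF10B passed under every setting shown, and FAS, TNFRSF10A, XIAP and CFLAR under few.

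The genome around the members was then read. BIRC3 and BIRC2 start 29.8 kb from each other on the same strand. Of the 8 tested genes that start within 500 kb of BIRC3, 4 rose, namely BIRC2, MMP8, MMP10 and MMP1, and 0 fell. Over all tested genes 22.9% rose and 15.6% fell. MMP8, MMP10 and MMP1 averaged 0.798, 0.0371 and 0.514 FPKM with DMSO. They reached the 1 FPKM filter through their levels with CuB, so this count says nothing about the region. The nearest tested genes outside the pair did not pass. YAP1, a coactivator of TEAD factors, was at 35.8 ± 1.28 FPKM with CuB and 36.3 ± 1.08 FPKM with DMSO, and TMEM123 at 68.5 ± 7.38 FPKM with CuB and 69.3 ± 6.59 FPKM with DMSO. The matrix metalloprotease MMP1, 480.7 kb away, was at 21.1 ± 5.6 FPKM with CuB and 0.514 ± 0.0785 FPKM with DMSO (log2 fold change 3.83, adjusted p = 2.16e-05).

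**Figure D3:**
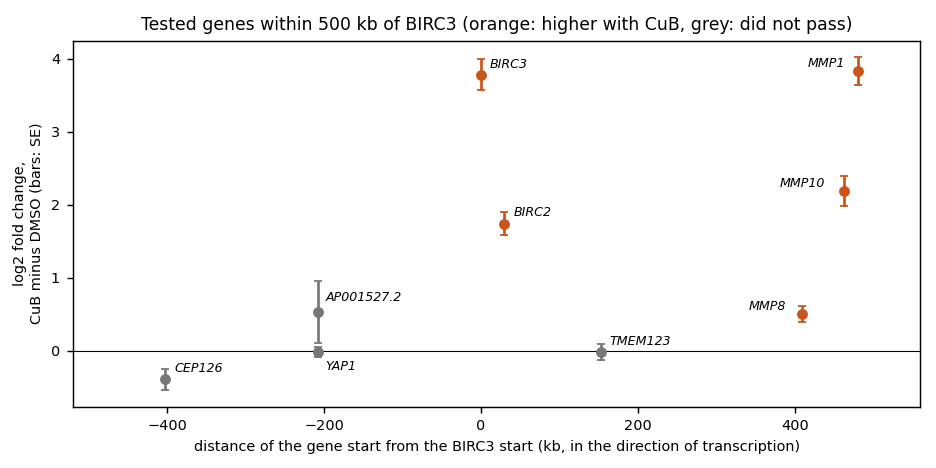
Log2 fold change (CuB minus DMSO, with SE) of the tested genes within 500 kb of BIRC3, against the distance of their start from that of BIRC3 in kb. BIRC3, BIRC2 and the metalloprotease genes MMP8, MMP10 and MMP1 (orange) passed, and YAP1 and TMEM123, which flank the pair, lie at 0. MMP8, MMP10 and MMP1 were under 1 FPKM on average with DMSO.

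Near TNFRSF10B, 4 of 14 tested genes rose and 0 fell. The closest start was that of AC107959.3, annotated as antisense, at -5.31 kb (upstream), which rose to 4.23 ± 0.289 FPKM with CuB, against 0.604 ± 0.2 FPKM with DMSO (log2 fold change 1.71, adjusted p = 0.000118). EGR3, an immediate early zinc finger factor 375.9 kb away, was at 48.5 ± 0.889 FPKM with CuB and 5.26 ± 0.648 FPKM with DMSO. Near TRAF1, 0 of 12 tested genes rose and 4 fell, among them GSN, the actin-severing protein gelsolin, at 14.5 ± 1.45 FPKM with CuB and 57.8 ± 10.4 FPKM with DMSO. Near CFLAR 3 of 13 rose and 2 fell, near FAS 1 of 5 rose and 4 fell, and near XIAP 0 of 2 passed. Over all tested genes 22.9% rose and 15.6% fell, and these small counts were not tested against those shares. Some of the genes, such as AC107959.3, reached the 1 FPKM filter only through the group where they are high.

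The tested protein-coding genes whose profile over the 6 libraries was nearest to that of BIRC3 were DDIT3, MMP1 and CXCL8, at distances of 0.331, 0.51 and 0.551. For BIRC2 they were TNFRSF9, PSAT1 and TES, at 0.132, 0.136 and 0.147. The distance is Euclidean, in log2(FPKM + 1), between profiles centred on the DMSO mean, so the size of the difference between the groups weighs most in it.

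The other genes of the pathway were read from lists of 80 genes, of which 63 were tested. Of these 33 rose and 3 fell, where 22.9% of all tested genes rose and 15.6% fell. Their median log2 fold change was 0.33, against 0.05 over all tested genes. No list was tested as a set.

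Of the ligands, TNFSF10 (TRAIL) and FASLG (FAS ligand) were listed at 0 in all 6 libraries. TNF had 83, 66 and 81 fragments with CuB, against 0, 2 and 7 with DMSO, or 3.12 ± 0.434 FPKM with CuB and 0.113 ± 0.138 FPKM with DMSO. Its log2 fold change was 1.89 (adjusted p = 0.000153). It was the only ligand of 7 that reached the 1 FPKM filter, and it did so through its level with CuB, so this count says nothing about the list. LTB, lymphotoxin beta, was under the filter, at 1.11 ± 0.194 FPKM with CuB and 0.234 ± 0.238 FPKM with DMSO.

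The TNF receptor family held 11 other receptors, of which 8 were tested (median log2 fold change 0.39). Among these 4 rose and 2 fell, where 22.9% of all tested genes rose and 15.6% fell. NGFR, the p75 neurotrophin receptor with a death domain, was at 17.3 ± 3.82 FPKM with CuB and 3.03 ± 0.587 FPKM with DMSO (log2 fold change 2.17). TNFRSF12A, the TWEAK receptor, was at 128.3 ± 30.6 FPKM with CuB and 29.98 ± 13.6 FPKM with DMSO (2.12). TNFRSF11B, the soluble receptor osteoprotegerin, which binds TRAIL, was at 5.45 ± 1.13 FPKM with CuB and 1.92 ± 0.3 FPKM with DMSO (1.13). TNFRSF21, the death receptor DR6, fell to 24.5 ± 2.23 FPKM with CuB, against 43.6 ± 2.06 FPKM with DMSO. TNFRSF1A, the main TNF receptor with a death domain, also rose, to 47.02 ± 2.33 FPKM with CuB, against 33.8 ± 3.96 FPKM with DMSO (adjusted p = 0.0103).

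Of 9 tested adaptors and initiator caspases 3 rose and 0 fell (median 0.11), where 22.9% of all tested genes rose and 15.6% fell. PEA15, a death effector domain protein that binds FADD and CASP8, was at 107.7 ± 4.13 FPKM with CuB and 48.8 ± 4.37 FPKM with DMSO (log2 fold change 1.13, adjusted p = 0.000135). FAF1, a FAS-associated factor, rose by 0.30 and DAXX by 0.25, and neither passed once FPKM sums were made equal (adjusted p = 0.0892 and 0.176). FADD had 11.1, 14.7 and 15.2 FPKM with CuB, against 5.49, 13.8 and 5.71 FPKM with DMSO, and DMSO replicate 2 lay among the CuB values (adjusted p = 0.103). Of 7 apoptosome and executioner genes 3 rose and 1 fell (median 0.23), against 22.9% and 15.6% of all tested genes. Among them CYCS, cytochrome c, rose to 44.1 ± 2.74 FPKM with CuB, against 30.9 ± 1.12 FPKM with DMSO (log2 fold change 0.50, adjusted p = 0.00314). CASP6 fell to 2.59 ± 0.424 FPKM with CuB, against 5.44 ± 0.545 FPKM with DMSO.

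Of 8 other IAPs and IAP antagonists 3 were tested and 0 passed, where 38.6% of all tested genes passed. BIRC5 (survivin) was at 28.5 ± 1.42 FPKM with CuB and 25.6 ± 0.343 FPKM with DMSO (adjusted p = 0.154; 0.0257 after the GC correction), and BIRC6 at 15.7 ± 0.946 FPKM with CuB and 15.4 ± 1.57 FPKM with DMSO (adjusted p = 0.855). DIABLO, which encodes the IAP antagonist SMAC, has 2 overlapping entries in the table, and the higher of them was at 0.329 ± 0.0308 FPKM with CuB and 0.304 ± 0.0665 FPKM with DMSO. How fragments in the overlap were counted is not given, so these values may understate the level of DIABLO. Of the 3 necroptosis genes RIPK3 was listed at 0 in all 6 libraries, ZBP1 was at 0 with CuB and 0.0113 ± 0.0196 FPKM with DMSO, and MLKL was at 7.26 ± 0.189 FPKM with CuB and 6.24 ± 0.528 FPKM with DMSO (adjusted p = 0.119).

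Of 7 genes, the other TRAF genes and TANK, 4 rose and 0 fell (median 0.56), against 22.9% and 15.6% of all tested genes. TRAF6 was at 7.55 ± 0.912 FPKM with CuB and 3.30 ± 0.522 FPKM with DMSO, TRAF4 rose by 0.92 and TRAF3 by 0.56. TRAF2, which brings the cIAP proteins to TNF receptor complexes, was at 13.4 ± 2.26 FPKM with CuB and 7.55 ± 1.68 FPKM with DMSO (log2 fold change 0.75, adjusted p = 0.0131), but with DMSO replicate 1 left out it missed the threshold (adjusted p = 0.0502). Among 18 ubiquitin editing genes and kinases of these complexes 9 rose and 0 fell (median 0.38), against 22.9% and 15.6% of all tested genes. The deubiquitinase TNFAIP3 (A20) had 64.8, 62.3 and 58.9 FPKM with CuB, against 1.999, 1.57 and 2.41 FPKM with DMSO (log2 fold change 4.40). MAP3K14, the kinase whose protein the cIAP ligases keep low, was at 11.4 ± 1.46 FPKM with CuB and 2.96 ± 0.65 FPKM with DMSO (1.65, adjusted p = 0.000269). TNIP1, a partner of TNFAIP3, rose by 0.82 and the deubiquitinase CYLD by 0.77, whereas the linear ubiquitin ligase subunits RNF31, RBCK1 and SHARPIN did not pass (adjusted p = 0.17, 0.0794 and 0.973).

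All 9 NF-kB subunits and inhibitors rose (median 1.69), where 22.9% of all tested genes rose and 15.6% fell. They were led by NFKBIA (2.64), RELB (2.55), NFKBIE (2.44) and NFKB2 (1.80). DDIT3, which is known to act on TNFRSF10B, was at 58.01 ± 5.62 FPKM with CuB and 3.54 ± 0.813 FPKM with DMSO, and ATF4 at 216.5 ± 3.01 FPKM with CuB and 99.3 ± 6.77 FPKM with DMSO.

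**Figure D4:**
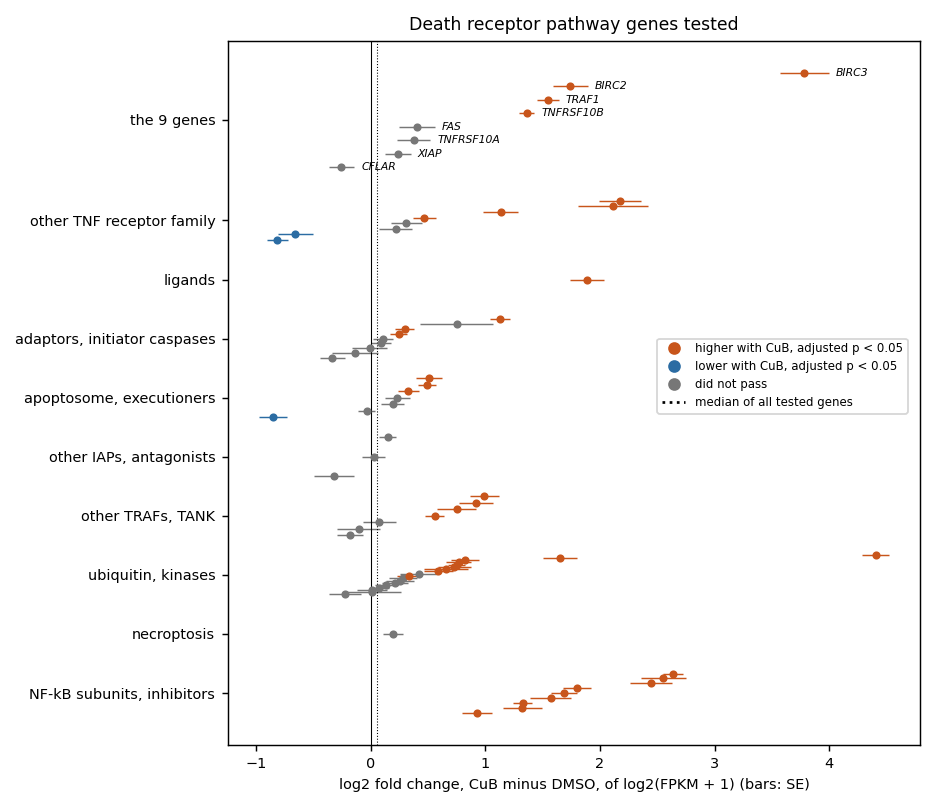
Log2 fold change (CuB minus DMSO, with SE) of each tested gene, in rows by role, with the median of all tested genes as a dotted line at 0.05. BIRC3 at 3.78 and TNFAIP3 at 4.40 lie farthest to the right, and all 9 NF-kB genes lie above 0.9.

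Depth was similar in all libraries, with 15502971 to 16137093 fragments with CuB and 14845976 to 15797757 with DMSO. The neural crest factor SOX10 was at 217.9 ± 31.1 FPKM with CuB and 197.8 ± 50.4 FPKM with DMSO, and MITF at 4.42 FPKM with CuB and 3.96 FPKM with DMSO, and neither passed. The other 4 of the 6 tested markers on the melanoma list changed. S100B fell to 6.64 ± 0.161 FPKM with CuB, against 26.4 ± 1.61 FPKM with DMSO, and S100A1 fell to 1.91 ± 0.341 FPKM with CuB, against 4.80 ± 1.28 FPKM with DMSO. AXL rose to 81.7 ± 7.06 FPKM with CuB, against 29.3 ± 3.68 FPKM with DMSO, and NGFR, which is also among the receptors above, rose as given there. The pigment genes PMEL, MLANA, TYR, DCT and TYRP1 were under 1 FPKM on average in both groups. The summed level of 5 keratinocyte markers was 25.9 to 28.4 FPKM with CuB and 16.02 to 22.1 FPKM with DMSO, most of it KRT10, and KRT1 and DSG3 were listed at 0. The sums were 1.19 to 1.78 FPKM with CuB and 2.67 to 3.58 FPKM with DMSO for 5 fibroblast markers, 0.52 to 1.39 FPKM with CuB and 1.76 to 2.08 FPKM with DMSO for 5 immune markers, and under 0.6 FPKM in every library for 3 endothelial markers. Their part in the results was not tested.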

How the data were processed

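Values are FPKM as deposited by the authors, with a symbol, coordinates and a gene length for each gene. Per the labels' protocols, a TruSeq RNA kit and 1 µg of RNA were used for each library. Per the submitters' processing notes the genome was GRCh38. The aligner, the counter and the scaling: not given in the sources used here. Coordinates of the 58735 genes equalled those of GENCODE 29, which gave GC content and exon lengths. Columns were matched to libraries by name, with 0 left unused. Fragments were recovered from FPKM and gene length, which gave whole numbers (tolerance 0.01) for 100% of nonzero values. The library size behind the FPKM was 0.914 to 0.927 times the fragment total with CuB and 1.03 to 1.04 times with DMSO, and equal fragment totals were among the scalings tried. Replicates differed by more than sampling noise (chi-square over its degrees of freedom, 2.93 to 27.4).

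log2(FPKM + 1) of the 13273 genes averaging 1 FPKM or more was fitted with limma 3.58.1 in R 4.3.3, with an intensity trend and no replicate block (4 residual degrees of freedom), with Benjamini-Hochberg adjustment over all tested genes and a threshold of 0.05. The step was also run on simulated counts, with the same noise for all genes and no GC shifts between libraries. These libraries differ from that setting, so the simulation does not show how the step behaves on them. Ratios within libraries were compared by exact permutation tests. Named genes were the members, of each list up to 4 of the largest passing members or otherwise the 2 highest, DDIT3, ATF4, the nearest profiles to BIRC3 and BIRC2, and genes that overlap or neighbour a member. TNFRSF1A, TNFRSF10C, CASP8, FADD, DIABLO, RNF31, RBCK1, SHARPIN, TNFSF10, FASLG, LTB and RIPK3 were added after their values were seen. Some named genes are not reported here. The members and lists were chosen with earlier results of these data known. Python 3.11.15 with matplotlib 3.10.9 drew the plots.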

Additional observations from a re-analysis of the deposited data

How the results depend on the processing

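BIRC3, BIRC2, TRAF1 and TNFRSF10B rose under all 20 alternatives, with log2 fold changes of 3.63 to 4.16, 1.52 to 1.85, 1.40 to 1.72 and 1.13 to 1.39. The members called numbered 4 as reported and 4 to 5 without single libraries, all of them higher. The GC correction gave 7, all higher, with or without the replicate block, and over all genes 7653 changed, 4540 of them higher, or 7225 and 4310 with the block. Equal fragment totals and limma-voom each gave 5, of which 1, CFLAR, was lower. Deviations from the group means correlated between same-numbered libraries at r = 0.269, 0.118 and -0.357 for replicates 1, 2 and 3. Between libraries of different number r ran from -0.494 to 0.469. Libraries also differed by GC content, so these values cannot show whether the replicates were paired. With the replicate block 4 members were called, 33 pathway genes (36 without it) and 4443 genes in all (5118 without it).

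Of all tested genes 5118 changed, 3046 higher and 2072 lower. Genes of at least 5 FPKM gave 3250, 985 of them lower. Equal fragment totals gave 2020 higher and 3128 lower and shifted the median log2 fold change by -0.139. The GC correction gave 3113 lower, and 2915 lower with the block. Without CuB replicate 2 there were 3262, 1965 higher and 1297 lower, and without DMSO replicate 1 there were 1359 lower. Single libraries left out gave 3262 to 5755 in all, 1965 to 3443 higher and 1297 to 2312 lower. Pathway genes called numbered 31 to 40 without single libraries. Those lower numbered 3 as reported, 1 at the 5 FPKM minimum and 6 with the GC correction, with or without the block.

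BIRC3 over BIRC2 moved by 2.33 and 2.19 with pseudocounts of 0.1 and 0.5. TNFRSF10B over TNFRSF10D moved by 1.54 with a pseudocount of 0.1 and by 1.15 after quantile normalization. CFLAR over CASP8 reversed to -0.056 with a pseudocount of 0.1 and was 0.29 after quantile normalization. BIRC5 reversed to -0.052 after quantile normalization and -0.012 with equal totals. BIRC6 reversed to -0.070 with equal sums, -0.13 after quantile normalization, -0.13 with equal totals, -0.0061 without CuB replicate 2 and -0.056 without DMSO replicate 2 (range -0.056 to 0.073 without single libraries). Of 755 values of 38 genes (the members, the genes named from the pathway lists by rule, and their regulators) 702 kept their direction and side of the threshold, 32 lost the call, 14 gained it and 7 reversed. The other neighbouring, overlapping and nearest-profile genes and those added after their values were seen were not recomputed under the alternatives. The causes were not tested.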
